A study of Mus musculus with 20 samples.

Results

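Phospholipid flippases are P4-ATPases, membrane pumps that use ATP to move phospholipids, mainly phosphatidylserine and phosphatidylethanolamine, from the outer or lumenal leaflet of a membrane to the cytosolic leaflet. Most of them leave the endoplasmic reticulum only when bound to a CDC50 subunit, of which Tmem30a (CDC50A) is the most widely used, whereas Atp9a and Atp9b act without one. In the liver, Atp8b1 keeps the bile canalicular membrane of hepatocytes asymmetric, and Atp11a works at the plasma membrane. Here 9 flippase genes were followed in mouse liver by their symbols in the expression table: Atp11a, Atp11b, Atp8a1, Atp8b1, Atp9a, Atp9b, Atp10a, Atp10d and Tmem30a. They are 9 of the 45306 genes of the table and 9 of the 15616 genes that passed the filter on low counts. Atp11a was selected on its difference between the Sirt2-/-/CE and CE groups, so this difference is given as a description without a test.

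One liver RNA library was sequenced from each of 20 C57BL/6 mice, which formed 4 groups of 5. Control mice were wild type and were not cold-exposed, CE mice were wild type and spent 3 h of each day at 4 °C over 3 weeks, Sirt2-/- mice carried the knockout without cold, and Sirt2-/-/CE mice carried the knockout and received the same cold exposure. The mice were 5 weeks old at the start, and Sirt2, which encodes an NAD-dependent deacetylase, had been disrupted in the germline with Cas9 directed at exons 5 to 7, so that every cell type of the liver carried the knockout. Sex is not stated in the sources used here. Sirt2, the targeted gene, stood at 42.3 ± 1.3 CPM (counts scaled to library size by TMM; SD, n = 5) in Control and 46.6 ± 6.08 CPM in CE, and at 22 ± 5.01 CPM in Sirt2-/- and 21.6 ± 3.42 CPM in Sirt2-/-/CE, with no overlap between the genotypes.

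Total counts ranged from 35499796 to 53917339 per mouse. All 8 hepatocyte markers looked at (Alb and Ttr among them) were detected, and their summed level ranged from 81911 to 170107 CPM over the 20 mice, against 115 to 517 CPM for 8 Kupffer cell markers and 41.2 to 340 CPM for 8 sinusoidal endothelial markers. In bulk tissue, fewer cells of a type and less RNA per cell cannot be told apart. A p-value here sets a difference between groups against the spread between mice within groups. In the main edgeR fit this spread is estimated over all 4 groups and shared in part across genes.

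Atp11a, a plasma membrane flippase for phosphatidylserine and phosphatidylethanolamine, was the member whose groups separated. On build GRCm38 (GENCODE vM21), Atp11a (ENSMUSG00000031441) lies on the forward strand of chromosome 8 from 12757014 to 12868728 and has 11 transcripts, 6 of them coding. Its promoter is shown because it belongs to the member on which the results turn. The RefSeq window of 250 bases that ends at its start (chr8:12756766-12757015, forward strand, GRCm38.p6) reads as follows, with each CG dinucleotide in capitals.
Atp11a promoter: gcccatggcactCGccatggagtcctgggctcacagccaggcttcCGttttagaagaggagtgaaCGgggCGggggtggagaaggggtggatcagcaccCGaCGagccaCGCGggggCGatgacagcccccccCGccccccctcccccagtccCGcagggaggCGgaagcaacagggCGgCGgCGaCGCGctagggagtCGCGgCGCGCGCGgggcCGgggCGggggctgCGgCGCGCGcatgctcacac
The window holds 29 CG and 74.4% G and C. At least as many CG stand in 6.78% of the 32851 promoter windows of this length, and at least as high a share of G and C in 4.58% of them.

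In Control livers, Atp11a stood at 13.7, 16, 15.4, 19.3 and 11.5 CPM in replicates 1 to 5. In Sirt2-/- livers, it stood at 7.45, 6.64, 5.14, 5.20 and 9.25 CPM in replicates 11 to 15. All 5 knockout mice were below all 5 Control mice, with a gap of 2.28 CPM between the nearest mice. The means were 15.2 ± 2.87 CPM in Control and 6.73 ± 1.71 CPM in Sirt2-/- (SD, n = 5 each), a log2 fold change of -1.17 (standard error 0.31, 95% interval -1.79 to -0.56), which is a 2.26-fold lower level. The contrast that selected Atp11a compared other mice, although all 20 mice shared the estimate of spread and earlier results of these data were known. The exact two-sided permutation test of the means gave p = 0.00794, the smallest value that the 252 splits of 5 against 5 mice allow, unadjusted. Among all genes the difference did not pass the adjustment in the quasi-likelihood test of edgeR (adjusted p = 0.072). In this comparison 0.89% of the genes tested had an adjusted p under 0.05, and in 3.61% the groups did not overlap. The former share rests on 139 genes, a count that ranged from 5 (without Control replicate 2 or Sirt2-/- replicate 14) to 375 (without Sirt2-/- replicate 13) on leaving out single mice. By DESeq2 the adjusted p of Atp11a was 0.00982 and by limma voom 0.0176, so that its call depended on the tool, and in the edgeR fit it also depended on a single mouse of another group, Sirt2-/-/CE replicate 16, without which the adjusted p was 0.0341.

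The score of clock genes, which contrasts evening genes such as Dbp with morning genes such as Arntl, ranged from 1.33 to 3.36 in Control and from -6.48 to 2.17 in Sirt2-/- livers, in centred log2 CPM. With this score as a covariate the log2 fold change of Atp11a was -1.34 (adjusted p = 0.286), in an edgeR fit that called 0 of 15616 genes. All 8 Kupffer cell and all 8 endothelial markers had higher levels in Sirt2-/- than in Control, with median log2 fold changes of 0.40 and 0.34, and none of these 16 passed an unadjusted p of 0.05, which 14.9% of all genes did. The summed level of 8 cholangiocyte markers was 47.0 to 89.1 CPM in Control and 36.5 to 55.0 CPM in Sirt2-/- livers, with 4 of the 7 tested higher and 3 lower (1 lower at an unadjusted p under 0.05). Of 8 lymphocyte markers, 7 were lower (median log2 fold change -0.55, 1 at that p), and 5 of 5 red blood cell markers were lower (median -0.37, 1 at that p). Of the clock genes, 3 of 3 morning genes were higher (median log2 fold change 3.25, 3 at that p). The evening genes were lower in 5 of 5 (median -0.97, 0 at that p). None of the marker and clock genes had an adjusted p under 0.05 in edgeR. The part of these cells and of the clock genes in the level of Atp11a was not tested.

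In CE livers, Atp11a stood at 14.2, 26.4, 33.6, 33.2 and 26.9 CPM in replicates 6 to 10. Replicate 6 lay within the range of the Control mice, and the other 4 mice lay above every Control mouse. The mean was 26.9 ± 7.85 CPM (SD, n = 5), a log2 fold change of 0.82 from Control (standard error 0.31). In Sirt2-/-/CE livers, the gene stood at 2.33, 8.22, 10.1, 6.88 and 3.70 CPM in replicates 16 to 20. Their mean of 6.24 ± 3.19 CPM was close to that of the unexposed knockout mice, whose range overlapped theirs, with a log2 fold change of -0.11 (standard error 0.31), and this value turned to 0.10 without Sirt2-/-/CE replicate 16 and to 0.12 by limma voom. Between CE and Control, 0 genes of the marker and clock lists had an adjusted p under 0.05 in edgeR. By direction, 8 of 8 endothelial markers were lower (median log2 fold change -0.77, 3 at an unadjusted p under 0.05), 7 of 8 stellate cell markers were lower (median -0.62, 1 at that p), 8 of 8 lymphocyte markers were lower (median -0.97, 0 at that p), 5 of 5 red blood cell markers were lower (median -0.26, 0 at that p) and all 3 morning clock genes were higher (median 3.06, 2 at that p), beside 10.7% of all genes at that p. The evening clock genes were lower in 5 of 5 (median -0.78, 0 at that p). The part of these cells and clock genes in the level of Atp11a was not tested. These comparisons involve the mice on which Atp11a was selected, and no test is given for them.

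Between Sirt2-/-/CE and CE, the contrast of the selection, the log2 fold change of Atp11a was -2.10 (standard error 0.32), a 4.3-fold lower level without overlap of the groups. Over all genes tested here, 0.0128% had an adjusted p under 0.05 and 1.22% did not overlap, and nothing is read from these shares for Atp11a because the selection fixed its place. Against Control, the Sirt2-/-/CE mice had a log2 fold change of -1.28 (standard error 0.31), also without overlap in CPM, where 0.122% of the genes tested had an adjusted p under 0.05 and 2.71% did not overlap. In the comparison with Control, 0 marker and clock genes had an adjusted p under 0.05 in edgeR. By direction, 8 of 8 Kupffer cell markers were higher (median log2 fold change 0.71, 4 at an unadjusted p under 0.05), 8 of 8 endothelial markers were higher (median 0.52, 1 at that p), 5 of 5 evening clock genes were lower (median -0.78, 1 at that p), 8 of 8 lymphocyte markers were lower (median -1.07, 1 at that p), 3 of 3 morning clock genes were higher (median 3.0, all at that p) and 3 of 7 cholangiocyte markers were higher and 4 lower (median -0.38, 2 lower at that p). At that p stood 11.2% of all genes in this comparison. The effect of cold in the knockout minus that in the wild type was -0.93 on the log2 scale (standard error 0.44). Over all 20 mice, Atp11a reached at most 10.1 CPM in the 10 knockout mice and at least 11.5 CPM in the 10 wild-type mice. The CE and Sirt2-/-/CE mice among them are those of the selection, so their part of this separation was fixed in advance. No share over all genes was computed for it. Between Sirt2-/-/CE and CE, 0 of the marker and clock genes had an adjusted p under 0.05 in edgeR. By direction, 8 of 8 endothelial markers had higher levels in Sirt2-/-/CE than in CE at an unadjusted p under 0.05, with a median log2 fold change of 1.31 and summed levels of 225 to 340 against 41.2 to 198 CPM, and 5 of 8 Kupffer cell markers did so, beside 6.09% of all genes at that p. All 8 stellate cell markers were higher (median 0.63, 2 at that p). Summed cholangiocyte markers ranged from 31.9 to 48.5 CPM in Sirt2-/-/CE and from 51.2 to 79.7 CPM in CE, while of the 7 tested 3 were higher and 4 lower (median -0.16, 2 lower at that p). Their part in the difference of Atp11a was not tested.

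**Figure D1:**
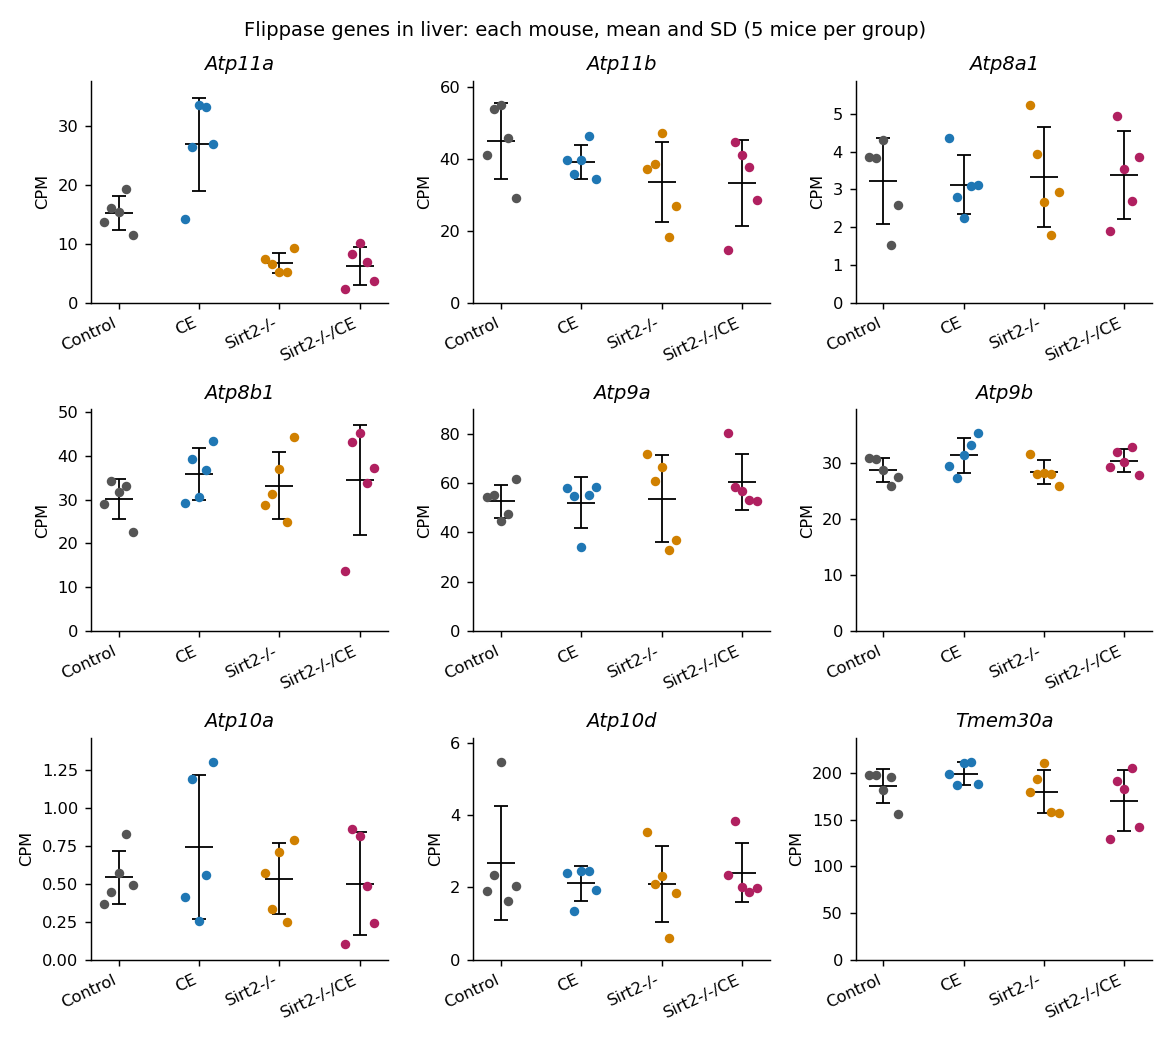
Level of the 9 flippase genes in CPM in each mouse (points), with the mean and SD of each group of 5 mice (bars); each panel has its own linear axis from 0. The Atp11a panel separates the knockout mice, at or below 10.1 CPM, from the wild-type mice, at or above 11.5 CPM, and in the other 8 panels every pair of groups compared overlaps. Atp11a was selected on the CE and Sirt2-/-/CE mice, so their part of its separation was fixed in advance.

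Tmem30a, the CDC50A subunit of most P4-ATPases, was the most abundant member. It stood at 198, 199, 183, 196 and 156 CPM in Control and at 181, 195, 211, 159 and 158 CPM in Sirt2-/- livers. It stood at 200, 187, 211, 213 and 188 CPM in CE and at 130, 192, 183, 206 and 142 CPM in Sirt2-/-/CE livers. All groups overlapped, and the log2 fold change was -0.05 (95% interval -0.30 to 0.21) for Sirt2-/- against Control and 0.10 (95% interval -0.16 to 0.36) for CE against Control. The lowest levels were those of Sirt2-/-/CE replicates 16 and 20.

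Atp11b, the paralog of Atp11a found on endosomes and the trans-Golgi network, had its lowest levels in knockout mice. It stood at 41.2, 53.9, 55.1, 45.8 and 29.3 CPM in Control and at 37.1, 38.6, 47.1, 18.3 and 27.1 CPM in Sirt2-/- livers. The groups overlapped, and the log2 fold change of -0.42 (95% interval -0.93 to 0.09, edgeR adjusted p = 0.479) did not pass the test. In Sirt2-/-/CE livers it ranged from 14.8 to 44.6 CPM and in CE livers from 34.5 to 46.6 CPM. The interval of the knockout difference of Atp11b reaches down to -0.93, and that of Atp11a reaches up to -0.56.

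Atp8b1, the canalicular flippase whose human counterpart is mutated in familial intrahepatic cholestasis, stood at 22.6 to 34.2 CPM in Control, 29.2 to 43.5 CPM in CE, 24.9 to 44.2 CPM in Sirt2-/- and 13.7 to 45.2 CPM in Sirt2-/-/CE livers. Its log2 fold change was 0.14 (95% interval -0.32 to 0.60) for Sirt2-/- and 0.25 (95% interval -0.21 to 0.71) for CE, both against Control. Neither passed the test, with edgeR adjusted p = 0.835 and 0.781. A single Sirt2-/-/CE mouse, replicate 16, held the lowest value of the 20 mice. A stretch of 178 bases of Atp8b1 matches the predicted gene Gm44887 at 95.5% identity, so that a few of its reads could be shared.

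Atp9a and Atp9b, which need no CDC50 subunit and act on endosomes and the trans-Golgi network, differed in their spread between mice. Atp9a ranged from 32.9 CPM, in Sirt2-/- replicate 14, to 80.2 CPM, in Sirt2-/-/CE replicate 16, a coefficient of variation of 21.3% over the 20 mice. Atp9b ranged from 25.9 to 35.4 CPM, with a coefficient of variation of 8.44%, the smallest among the members. The log2 fold change for Sirt2-/- against Control was 0.03 (95% interval -0.37 to 0.43) in Atp9a and -0.02 (95% interval -0.21 to 0.18) in Atp9b. For CE against Control it was -0.02 (95% interval -0.42 to 0.38) in Atp9a and 0.13 (95% interval -0.07 to 0.32) in Atp9b. The narrow intervals of Atp9b leave room for changes of at most 0.32 on the log2 scale in either comparison, at an approximate 95% level.

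Atp8a1, a phosphatidylserine flippase of endosomes, ranged from 1.53 to 5.24 CPM, and its log2 fold change for Sirt2-/- against Control was 0.04 (95% interval -0.57 to 0.66). Up to 13.8% of the counts of Atp8a1 and Shisa3 together fell on Shisa3. This protein-coding gene of the other strand shares 138 exonic bases with Atp8a1, and the authors' handling of strand is not given in the sources used here. Atp10a and Atp10d belong to the subfamily whose human relatives move phosphatidylcholine or glucosylceramide. Atp10a had 4 to 44 counts per mouse, and its 95% interval of -1.07 to 1.02 for Sirt2-/- against Control shows how wide a change could go undetected at this depth. Atp10d, which the annotation lists as a polymorphic pseudogene, ranged from 0.60 CPM, in Sirt2-/- replicate 14, to 5.48 CPM, in Control replicate 3, and its log2 fold change was -0.36 (95% interval -1.11 to 0.39).

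Across the 8 members other than Atp11a, edgeR called 0 genes in each comparison in which they were tested, 0 had an unadjusted p under 0.05, and 0 separated the groups of any compared pair. The background shares at an unadjusted p under 0.05 were 14.9% of all genes for Sirt2-/- against Control, 10.7% for CE against Control, 7.25% for Sirt2-/-/CE against Sirt2-/-, 11.2% for Sirt2-/-/CE against Control, 6.09% for Sirt2-/-/CE against CE and 8.34% for the interaction of genotype and cold. At an adjusted p under 0.05, 0.0064% of genes were called for CE against Control, and 0% both for Sirt2-/-/CE against Sirt2-/- and for the interaction. Groups were without overlap in 3.04% of genes for CE against Control and in 0.743% for Sirt2-/-/CE against Sirt2-/-. Over DESeq2, limma voom and the other alternatives, the lowest adjusted p among these 8 members was 0.267, so that no tool called one of them. Their log2 fold changes ran from -0.42 to 0.14 for Sirt2-/- against Control (3 higher, 5 lower, median -0.02 against 0.02 over all genes). They ran from -0.33 to 0.45 for CE against Control, with 4 higher and 4 lower. A p that misses the threshold does not show that a gene stayed at its level, and the approximate intervals above bound each difference.

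**Figure D2:**
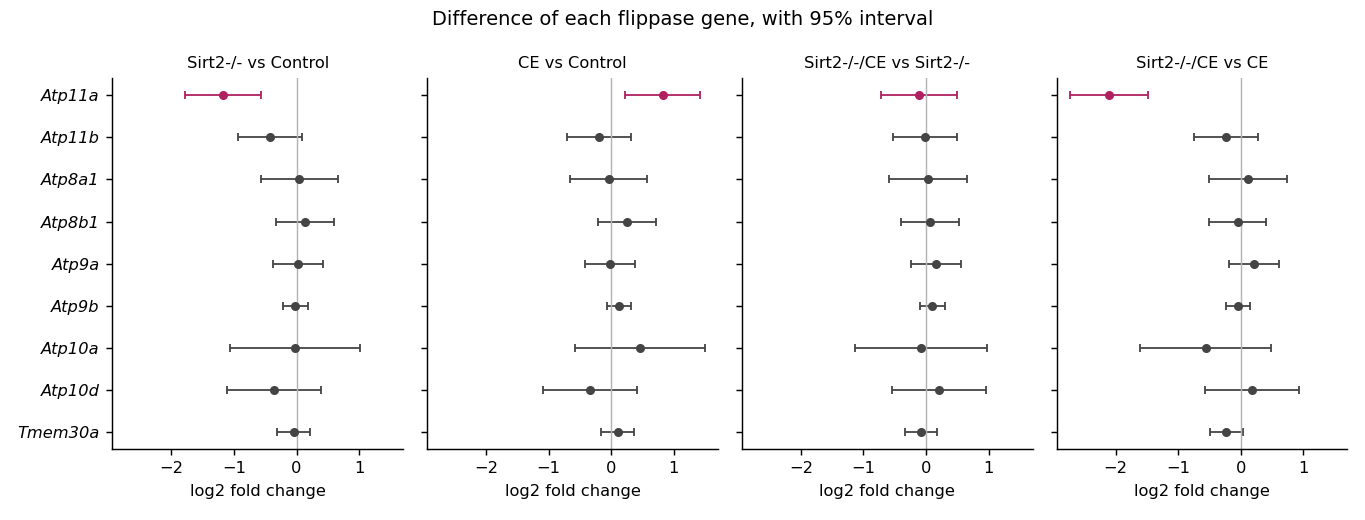
Log2 fold change (horizontal axis) of each flippase gene in 4 comparisons, with an approximate 95% interval (normal approximation from the edgeR fit over 20 mice). Atp11a, in red, lies at -1.17 for Sirt2-/- against Control and at -2.10 in the comparison on which it was selected, and the intervals of the other 8 genes include 0 in every panel.

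Per gene length, the authors' FPKM values (fragments scaled to gene length and library depth) put Tmem30a first, with a mean level of 48.6 FPKM over the 20 mice. It was followed by Atp9a at 14.4, Atp11b at 7.44, Atp9b at 5.28, Atp8b1 at 5.0, Atp11a at 2.04, Atp8a1 at 0.41, Atp10d at 0.38 and Atp10a at 0.10 FPKM. The range of Tmem30a, 31.4 to 56.8 FPKM, lay above that of every other member. Each later neighbour pair overlapped in range. Atp9a was above Atp11b in 20 of 20 mice, whereas Atp9b was above Atp8b1 in only 12 of 20 and Atp8a1 above Atp10d in 13 of 20, so that the order within these last pairs was not resolved. Scaling CPM to the merged exons of the annotation put Atp8b1 ahead of Atp11b and Atp9b, and exchanged Atp8a1 with Atp10d.

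**Figure D3:**
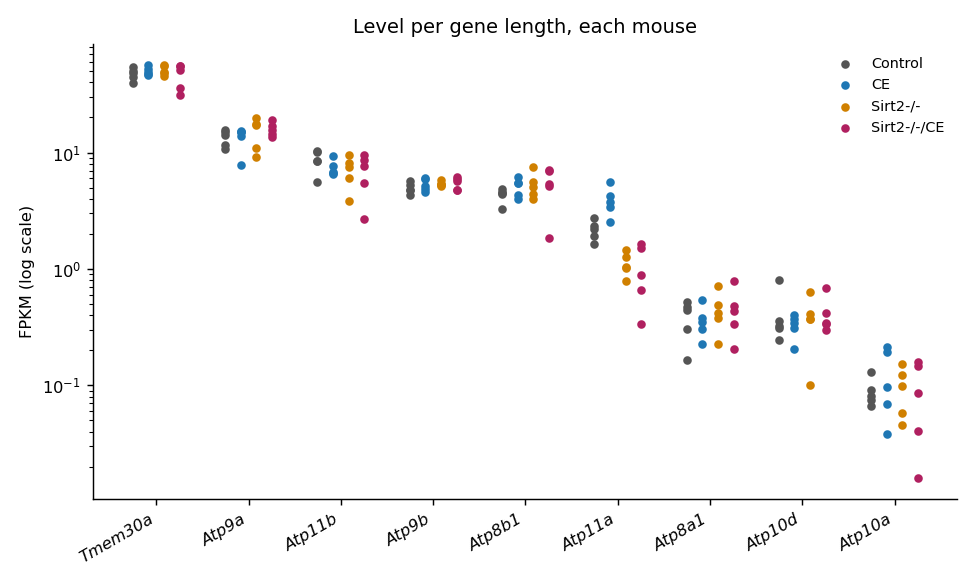
FPKM of the flippase genes on a log axis, 1 point per mouse, coloured by group and ordered by mean level. Tmem30a stands apart at 31.4 to 56.8 FPKM, and the Atp11a points run from 0.33 to 5.53 FPKM with Sirt2-/-/CE replicate 16 lowest.

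The FPKM of Atp11a carries an uncertainty that is smaller in the other members. Dividing its counts by its FPKM and the depth gives the length that the authors' calculation assigned to the gene, and this length ran from 5395 to 8038 bases between mice, a coefficient of variation of 11.8%. The corresponding figure was 5.91% for Atp8a1 and 5.74% for Atp10d, 2% for Atp10a, 1.31% for Atp9a, 0.98% for Atp11b, Atp8b1 and Atp9b, and 1.01% for Tmem30a. For Atp11a the assigned length overlapped between groups, with medians of 6673 bases in Control, 6583 in CE, 6643 in Sirt2-/- and 6383 in Sirt2-/-/CE. In FPKM, Atp11a ranged from 1.64 to 2.71 in Control and from 0.79 to 1.46 in Sirt2-/- livers, again without overlap, but Sirt2-/-/CE replicate 17 (1.65 FPKM) stood above Control replicate 5 (1.64 FPKM), so that the separation of all knockout from all wild-type mice seen in CPM was lost on this scale. The comparisons above use counts, which the assigned length does not enter. The antisense genes Gm15350 and Gm15347 overlap exons of Atp11a, and Gm15347 held at most 0.906% of the counts of the pair in any mouse.

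As a share of the summed FPKM of the 8 P4-ATPases among the members, Atp11a made up 6.33% ± 1.25 (SD, n = 5) in Control and 10.9% ± 3.17 in CE livers. It made up 3.35% ± 1.09 in Sirt2-/- and 2.71% ± 1.16 in Sirt2-/-/CE livers. The shares of Control mice, 5.19 to 8.47%, lay above those of Sirt2-/- mice, 1.99 to 4.54%. The summed FPKM itself was 34.2 ± 2.75 in Control, 35.9 ± 5.02 in CE, 34.7 ± 6.93 in Sirt2-/- and 35.4 ± 5.79 in Sirt2-/-/CE livers, means that differed by less than the spread within the groups.

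From a wider list of P4-ATPases and CDC50 subunits, Atp8b2, Atp8b4, Atp8b5 and Tmem30b also passed the filter, and none of these 4 had an adjusted p under 0.05 in any comparison in edgeR. Tmem30b, a second CDC50 subunit, had the lowest unadjusted p of them, 0.020 in edgeR for Sirt2-/-/CE against Control, with a log2 fold change of -0.35 (standard error 0.14, adjusted p = 0.332). Atp8a2, Atp8b3, Atp10b and Tmem30c had at most 11 counts in any mouse and were not tested.

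By position the members were scattered over 7 chromosomes, with 2 pairs sharing one. Atp8a1 (67618140 to 67847434, reverse strand) and Atp10d (72203329 to 72298775, forward strand) lie on chromosome 5, and Atp8b1 (64528967 to 64661267) and Atp9b (80734141 to 80934060) lie on the reverse strand of chromosome 18. Within groups the levels of Atp8a1 and Atp10d had r = 0.64 and those of Atp8b1 and Atp9b r = 0.07 over the 20 mice.

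Single mice stood at the end of the range in several members. Sirt2-/-/CE replicate 16 had the lowest level of all 20 mice in 5 of the 9 members, Atp11a, Atp11b, Atp8b1, Atp10a and Tmem30a, and the highest in Atp9a. Its library held 44030198 counts and had a TMM scaling factor of 0.915, and the cause of its values was not tested. Sirt2-/- replicate 14 had the lowest level of Atp9a and Atp10d. In log2 CPM over the 20 mice, with the mean of each group subtracted, Pearson's r of Atp11a was 0.74 with Atp8b1, 0.64 with Atp10a, 0.60 with Atp11b, 0.57 with Tmem30a and -0.36 with Atp9a. It was 0.25 with Atp9b, 0.16 with Atp8a1 and 0.14 with Atp10d. Without that subtraction, the rank correlation (rho) was 0.20 with Atp8b1 (r = 0.42), 0.40 with Atp10a (r = 0.52), 0.42 with Atp11b (r = 0.58) and 0.45 with Tmem30a (r = 0.63). In Atp11a and in each of these genes, replicate 16 was the lowest mouse. The closest pair was Atp11b and Tmem30a, at 0.86 within groups. These values come from the same 20 libraries and are descriptions.

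**Figure D4:**
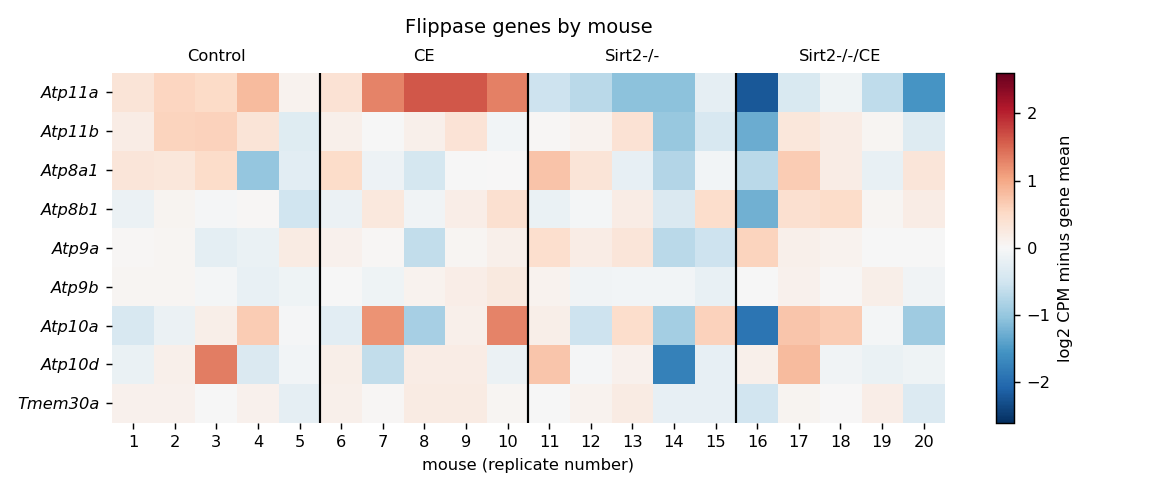
Log2 CPM of each flippase gene minus its mean over the 20 mice (colour), with mice in columns by replicate number and group. The Atp11a row is above its mean (red) in the Control and CE mice and below it (blue) in the knockout mice, and replicate 16 is the lowest of all mice in 5 of the 9 rows.

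The genes whose levels in log2 CPM followed Atp11a most closely over the 20 mice were Cobl, an actin nucleator, with r = 0.88 (rho = 0.88), Scara5, a ferritin receptor, with r = 0.87 (rho = 0.90), Cphx1, a homeobox gene, with r = 0.83 (rho = 0.84), Chrm3, a muscarinic receptor, with r = 0.81 (rho = 0.79), and Hc, complement component C5, with r = 0.80 (rho = 0.69). With group means subtracted, r was 0.68, 0.61, 0.62, 0.66 and 0.75 in the same order. Scara5 stood at 23.4 ± 16.8 CPM in Control and 3.65 ± 2.32 CPM in Sirt2-/- livers, and Cobl at 25 ± 2.82 and 16.2 ± 5.07 CPM. Cphx1 and Chrm3 averaged 0.13 and 0.14 FPKM, and Hc 139.9 FPKM. All members ranked lower, the nearest being Tmem30a with r = 0.63 at rank 180 of the genes tested. Sirt2 itself reached r = 0.72 over all mice and -0.49 within groups. The order depended on the scale: in log2(FPKM + 1), Sirt2 was at rank 5, ahead of Hc at rank 8 and Chrm3 at rank 18.

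Genes that act on the same lipids by other routes were looked at as lists. Scramblases let phospholipids pass between leaflets without ATP, and 11 of 15 passed the filter, of which 0 had an edgeR adjusted p under 0.05 in any comparison and 2 had an unadjusted p under 0.05 for Sirt2-/- against Control. Vmp1, a scramblase of the endoplasmic reticulum, had a mean of 76.5 CPM in Control and 101 CPM in CE, a log2 fold change of 0.40 (standard error 0.15, adjusted p = 0.334). Plscr3, a mitochondrial member of the phospholipid scramblase family, had a log2 fold change of -0.44 for CE against Control (standard error 0.17, adjusted p = 0.361).

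Of 9 ABC transporters that export lipids, 8 were tested, and 1 passed the test in any comparison. Abca7, which moves phospholipids toward the outer leaflet, rose from a mean of 4.60 to 7.75 CPM between Control and Sirt2-/- livers, a log2 fold change of 0.75 (standard error 0.18, adjusted p = 0.0472) without overlap of the groups, where 0.89% of all genes were called. By DESeq2 its adjusted p was 0.00442 and by limma voom 0.0143, but the edgeR call was lost on leaving out most single mice, with an adjusted p of 0.0352 to 0.168 over 20 removals and under 0.05 in 4 of them. Over the list the median was 0.05 in this comparison, with 4 higher and 4 lower. In CE livers Abca7 had a mean of 5.99 CPM, and its log2 fold change from Control was 0.38 (standard error 0.18, adjusted p = 0.45).

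All 11 genes for the synthesis and conversion of phosphatidylserine and phosphatidylethanolamine were tested, and 0 had an adjusted p under 0.05 in edgeR in any comparison, while 1 was higher and 1 lower at an unadjusted p under 0.05 for Sirt2-/- against Control. Ptdss2, a phosphatidylserine synthase, had means of 10.01 CPM in Control and 7.37 CPM in Sirt2-/- livers, a log2 fold change of -0.44 (standard error 0.17, adjusted p = 0.224). Selenoi, an ethanolamine phosphotransferase, had means of 33.6 and 51.7 CPM, a log2 fold change of 0.62 (standard error 0.26, adjusted p = 0.261). Of 4 endosomal partners of Atp9a, 0 passed the adjustment and 1, the sorting nexin Snx3, had an unadjusted p under 0.05 for CE against Control, with a log2 fold change of 0.39 (standard error 0.16, adjusted p = 0.391). Dop1a, another of them, had a log2 fold change of 0.28 for Sirt2-/- against Control (standard error 0.25, adjusted p = 0.649). The background for the counts of these lists at an unadjusted p under 0.05 was 14.9% of all genes for Sirt2-/- against Control and 10.7% for CE against Control.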

How the data were processed

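RNA-seq of liver from 20 mice was used. The authors deposited 1 table with, for each gene and mouse, a read count without normalization and an FPKM value that scales fragments to gene length and depth. The submitters' processing notes name mm10, and the aligner, the counter and the handling of strand are not given in the sources used here. Mice were grouped by their labels, and 9 rows of the table that hold no gene were left out.

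Counts were analysed in R 4.3.3 with edgeR 4.0.16 (TMM scaling, filterByExpr at its settings of 10 counts and 15 in total, quasi-likelihood test, two-sided, all 20 mice, group as the only term) and Benjamini-Hochberg adjustment over 15616 genes. A call is an adjusted p under 0.05. Log2 CPM used a prior count of 2. The tests were tested on simulated data. DESeq2 1.42.0, limma 3.58.1 (voom with quality weights), other scalings and filters, a fit of 2 groups, a clock covariate and the removal of each mouse were alternatives. The precision follows from the depth, 35499796 to 53917339 counts in a mouse, and from the variation among 5 mice. Exact permutation tests compared group means of CPM. Positions came from GENCODE vM21, which is on GRCm38, near-identical transcripts were searched with BLAST+ 2.17.0, and promoters came from RefSeq. Figures were drawn with matplotlib 3.10.9.

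The members, the lists and the tests were chosen with earlier results of these data known. Genes were named by a rule: Sirt2, the 9 members, further P4-ATPases and CDC50 subunits that passed the filter, in each other lipid list the genes with an adjusted p under 0.05 in any comparison or else the 2 with the lowest unadjusted p for Sirt2-/- or CE against Control, and the 5 genes most correlated with Atp11a. Marker lists served as checks of cell types. One result covered by this rule is not reported here.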

Additional observations from a re-analysis of the deposited data

Results flagged for a closer look

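Over 36 sets of 5 mice (9 genes in 4 groups), 4 held a mouse whose gap to the nearest other mouse, as a share of the range of its group in log2 CPM, exceeded Dixon's critical value of 0.71, and chance gives about 1 in 20. In CE livers, Atp11a had 14.2 CPM in replicate 6 against 26.4 to 33.6 CPM in the other mice, a gap of 0.722 of the range. In the same group Atp9a had 34.1 CPM in replicate 8 against 54.7 to 58.4 CPM, a gap of 0.879. In Sirt2-/-/CE livers replicate 16 stood out in 2 genes. Its Atp8b1, at 13.7 CPM against 33.7 to 45.2 CPM, had a gap of 0.755, and its Atp9a, at 80.2 CPM against 52.7 to 58.3 CPM, a gap of 0.758 on the high side.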

How the results depend on the processing

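No paired analysis was possible because the replicate numbers run from 1 to 20 and no number is shared between groups. For Sirt2-/- against Control, 1 flippase gene, Atp11a, was called by DESeq2 (log2 fold change -1.18, adjusted p = 0.00982), by limma voom (-1.13, adjusted p = 0.0176) and in a fit of the 2 groups compared (-1.18, adjusted p = 0.0497), against 0 in edgeR with all groups. Its value ranged from -1.32 to -1.08 and the count from 0 to 1 on leaving out single mice, with 1 called without Sirt2-/-/CE replicate 16. The next counts turn on Atp11a in comparisons with the mice on which it was selected, and they describe the fits and test nothing. For Sirt2-/-/CE against Control, the count went from 0 to 1 by DESeq2 and limma voom. For Sirt2-/-/CE against CE it dropped from 1 to 0 in the fit of 2 groups and with library size as the only scaling, and ranged from 0 to 1 on leaving out mice, with 0 without CE replicate 8 or 9 or Sirt2-/-/CE replicate 19 or 20. The number of all genes called for Sirt2-/- against Control was 139 in edgeR, 607 in DESeq2, 906 in limma voom, 35 without a filter and 29 in the fit of 2 groups, and scaling by library size only gave 419 and moved the median of all genes to 0.16. On leaving out single mice it ranged from 5 to 375. The call of Abca7, followed through the same alternatives after the data were seen, was lost with upper-quartile scaling (adjusted p = 0.0505), without a filter (0.0844), in the fit of 2 groups (0.109) and with the clock covariate (0.374). Its log2 fold change in these was 0.78, 0.75, 0.75 and 0.64 in the same order, against 0.75 in the main fit. The cause of these differences was not tested.

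The log2 fold change of Atp11a for Sirt2-/-/CE against Sirt2-/- turned from -0.11 to 0.12 by limma voom. Small log2 fold changes of the other members, none called under any alternative, turned sign as follows in the comparisons in which they were tested. For Sirt2-/- against Control, limma voom gave 0.031 for Atp10a and 0.054 for Atp10d, upper-quartile scaling gave 0.0038 for Atp9b, library size as the only scaling gave 0.12 for Atp9b, 0.13 for Atp10a and 0.090 for Tmem30a, and the clock covariate gave 0.0018 for Atp9b and 0.030 for Atp10d. For CE against Control, limma voom gave 0.0046 for Atp9a, and the clock covariate gave 0.21 for Atp8a1, 0.20 for Atp9a and 0.028 for Atp10d. For Sirt2-/-/CE against Sirt2-/-, limma voom gave 0.048 for Atp11b, -0.15 for Atp8a1, -0.077 for Atp9a, 0.30 for Atp10a and -0.041 for Atp10d, library size as the only scaling gave -0.025 for Atp8a1, and the clock covariate gave 0.0055 for Atp11b. For Sirt2-/-/CE against Control, limma voom gave 0.33 for Atp10a and 0.012 for Atp10d, library size as the only scaling gave 0.022 for Atp10a, and the clock covariate gave 0.24 for Atp10d. For the interaction, limma voom gave -0.074 for Atp8a1, 0.010 for Atp8b1, -0.081 for Atp9a and 0.042 for Atp9b, and the clock covariate gave -0.21 for Atp8a1 and -0.026 for Atp9a.

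Leaving out single mice moved values across 0 within these ranges. For Sirt2-/- against Control they were -0.062 to 0.011 in Atp9b, -0.098 to 0.16 in Atp9a, -0.64 to 0.063 in Atp10d, -0.18 to 0.20 in Atp8a1 and -0.21 to 0.17 in Atp10a. For CE against Control they were -0.22 to 0.079 in Atp8a1, -0.073 to 0.10 in Atp9a and -0.47 to 0.096 in Atp10d. For Sirt2-/-/CE against Sirt2-/- they were -0.35 to 0.10 in Atp11a, -0.17 to 0.18 in Atp11b, -0.16 to 0.26 in Atp8a1, -0.37 to 0.18 in Atp10a, -0.057 to 0.26 in Atp8b1, -0.036 to 0.49 in Atp10d and -0.16 to 0.0029 in Tmem30a. For Sirt2-/-/CE against Control they were -0.39 to 0.28 in Atp10d, -0.11 to 0.22 in Atp8a1 and -0.40 to 0.15 in Atp10a. For the interaction they were -0.12 to 0.30 in Atp8a1, -0.077 to 0.023 in Atp9b and -0.31 to 0.015 in Atp8b1. For Sirt2-/-/CE against CE, given as a description, they were -0.16 to 0.15 in Atp8b1, -0.078 to 0.27 in Atp8a1 and -0.067 to 0.26 in Atp10d.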
